A study of Homo sapiens with 10 samples.

Results

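Open chromatin in an edited colorectal cancer line was compared with that of its unedited parent, in the absence of any intended loss of the edited protein. The comparison took the 2 ATAC-seq peak lists of the untreated degron line and the 2 lists of unedited cells, merged all intervals of these 4 lists on chromosomes 1 to 22 and X into regions, and recorded which lists called each region. This gave 126443 regions, against 168719 when all 10 lists of the series were merged. Of the 126443 regions, 48718 were called in all 4 libraries, 11311 in both degron libraries and neither unedited library, and 2093 in both unedited libraries and neither degron library. In the other 64321 regions the replicates of at least 1 group differed. Without WT replicate 2 the order of the last 2 counts turned, with 11946 degron-only and 15112 WT-only regions, as it did when only degron peaks with a −log10 p of at least 10 were used (2763 and 4514).

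All libraries came from DLD-1, an established human colorectal adenocarcinoma line, and were made by Omni-ATAC from 50000 viable cells each, in which a transposase cuts accessible DNA and inserts sequencing adapters. The group AID_ctrl carried the genotype GATA6-AID-IAA7, a fusion of GATA6 with an auxin-inducible degron. Its samples carry the label +Auxin but a time of 0 h, and their titles name them controls, so they were read as untreated. The group WT was unedited DLD-1 with no treatment named. Outside the comparison, AID_aux was the same degron line after 12 h in auxin (500 µM IAA), AID_wash was that line after auxin was washed out (a time label of 1 with no unit), and KO was a line in which GATA6 had been knocked out. Each of the 5 groups had 2 libraries. The labels speak of positive clones without saying how many the libraries represent, do not give the place of the tag within GATA6, and leave unsaid if the replicates grew as separate cultures. Clone, editing, culture history and the form of the deposited list therefore cannot be told apart from the tag in these lists.

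GATA6 is a zinc-finger transcription factor of endoderm that binds the letters GATA and is active in the epithelium of the gut. An auxin-inducible degron binds a plant F-box protein of a ubiquitin ligase when auxin is added, and the proteasome then removes the tagged protein. Without auxin the tagged protein is meant to stay, and an untreated degron line is the usual baseline for the treated one. Accessible regions are of different kinds: promoters of active genes tend to be open across cell types and rich in CpG, while distal elements are more specific to a cell type and often weaker.

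Few regions of either class that differed lay at promoters, but promoters are the members whose sequences could be read. RefSeq promoters (GRCh38.p14, from 250 bp before to 50 bp after an annotated start) were available for 22132 starts of 15812 protein-coding genes. Promoters of 12200 of these starts overlapped regions called by all 4 libraries, in whole or in part. Another 160, or 0.723%, overlapped regions of both AID_ctrl and neither WT library, and 47, or 0.212%, regions of the reverse kind. Here and below, a promoter called in the degron line alone or in WT alone is so among these 4 libraries. The promoter of GATA6 itself was open in every library and is shown as the reference for the rest. ZNF429 encodes a zinc-finger protein and has the highest-ranked promoter, by the worse of its ranks in the AID_ctrl lists, among those called in the degron line and in neither WT library. ATG5, whose product is needed to form autophagosomes, and MAPK3, which encodes the kinase ERK1, follow among the 10 highest-ranked; the ATG5 entry is 1 of the annotated starts of its gene. From the promoters called in WT alone, MUC13 (a transmembrane mucin of the gut), IVL (involucrin, a protein of the squamous cell envelope), BMF (a BH3-only protein of apoptosis) and CAB39L are shown. Capitals mark the letters of 4 motifs on either strand: AGATAA or TGATAA for GATA factors, TATAAA for the binding protein of that box, CCAAT for the factor NF-Y, and TGANTCA for the AP-1 dimers. Letters were marked over the whole promoter, and those marked in ATG5 and CAB39L lie outside the called regions. Sequences run 5′ to 3′ on the gene's strand, in hg38 coordinates.
GATA6, chr18:22169339-22169638, strand +: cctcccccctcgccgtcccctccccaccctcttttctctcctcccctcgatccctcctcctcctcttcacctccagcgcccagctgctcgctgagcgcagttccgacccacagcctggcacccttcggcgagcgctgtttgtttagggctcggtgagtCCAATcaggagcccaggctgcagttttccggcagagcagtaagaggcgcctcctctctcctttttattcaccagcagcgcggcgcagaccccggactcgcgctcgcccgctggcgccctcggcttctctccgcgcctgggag
ZNF429, chr19:21505352-21505651, strand +: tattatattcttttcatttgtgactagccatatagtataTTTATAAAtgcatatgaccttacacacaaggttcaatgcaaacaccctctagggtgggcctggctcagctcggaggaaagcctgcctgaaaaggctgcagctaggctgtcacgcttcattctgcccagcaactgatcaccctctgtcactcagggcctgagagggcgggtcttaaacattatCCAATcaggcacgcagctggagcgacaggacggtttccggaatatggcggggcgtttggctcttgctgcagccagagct
ATG5, chr6:106316217-106316516, strand -: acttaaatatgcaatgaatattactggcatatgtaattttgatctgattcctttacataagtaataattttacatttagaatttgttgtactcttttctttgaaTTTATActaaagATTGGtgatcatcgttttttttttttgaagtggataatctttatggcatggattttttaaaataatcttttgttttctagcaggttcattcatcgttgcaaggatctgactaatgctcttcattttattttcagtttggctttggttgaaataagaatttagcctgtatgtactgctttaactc
MAPK3, chr16:30123171-30123470, strand -: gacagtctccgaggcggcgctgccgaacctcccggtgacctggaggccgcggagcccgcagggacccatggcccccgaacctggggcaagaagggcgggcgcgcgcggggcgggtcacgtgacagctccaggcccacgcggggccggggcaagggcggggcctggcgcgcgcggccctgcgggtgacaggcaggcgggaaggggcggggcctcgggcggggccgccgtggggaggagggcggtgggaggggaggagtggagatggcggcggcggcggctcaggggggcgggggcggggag
MUC13, chr3:124934702-124935001, strand -: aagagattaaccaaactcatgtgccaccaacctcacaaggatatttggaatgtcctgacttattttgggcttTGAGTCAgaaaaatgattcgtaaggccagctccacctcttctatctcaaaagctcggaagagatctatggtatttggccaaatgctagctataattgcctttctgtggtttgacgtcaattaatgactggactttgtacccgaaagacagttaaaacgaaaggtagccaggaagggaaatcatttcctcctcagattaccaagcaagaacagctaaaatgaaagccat
IVL, chr1:152908296-152908595, strand +: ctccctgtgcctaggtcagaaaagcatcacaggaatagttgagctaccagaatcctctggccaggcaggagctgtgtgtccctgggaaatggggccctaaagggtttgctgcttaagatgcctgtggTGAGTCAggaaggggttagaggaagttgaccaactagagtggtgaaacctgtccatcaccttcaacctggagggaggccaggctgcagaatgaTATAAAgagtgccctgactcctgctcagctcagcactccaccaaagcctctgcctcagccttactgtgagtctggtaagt
BMF, chr15:40106917-40107216, strand -: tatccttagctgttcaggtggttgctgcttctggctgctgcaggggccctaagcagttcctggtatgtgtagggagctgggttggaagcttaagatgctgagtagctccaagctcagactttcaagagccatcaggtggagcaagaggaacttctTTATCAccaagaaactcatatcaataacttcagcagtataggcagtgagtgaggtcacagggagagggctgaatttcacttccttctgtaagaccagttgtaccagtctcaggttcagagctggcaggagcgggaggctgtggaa
CAB39L, chr13:49401493-49401792, strand -: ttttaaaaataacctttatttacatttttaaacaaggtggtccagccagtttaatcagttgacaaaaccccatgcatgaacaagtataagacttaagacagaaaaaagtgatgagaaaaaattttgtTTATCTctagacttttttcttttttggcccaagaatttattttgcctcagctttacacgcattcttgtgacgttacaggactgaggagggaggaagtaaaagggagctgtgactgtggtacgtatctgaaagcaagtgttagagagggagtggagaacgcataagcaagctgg

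The 47 promoters called in WT alone were poorer in CpG than those called in all 4 libraries and more often held GATA letters. They are starts of 43 genes, and some overlap in sequence, as at LRRC34 and LRRIQ4. Letters were counted over the whole promoter, also where the called region covered only part of it. The letters of CAB39L lie outside its region, chr13:49401122-49401638. AGATAA or TGATAA was present on either strand in 16 of the 47, or 34.0%, as in BMF and CAB39L. It was present in 16 of the 160 promoters called in the degron line alone, in 6.93% of promoters in shared regions, in 20.4% of promoters in no region and in 12.4% of all 22132 promoters. TGANTCA was found in 17.0% of the WT-only promoters, with MUC13 and IVL among them, against 6.15% of all promoters. Base composition also differed between the classes, though not in the order of these shares. The median GC content was 59.7% in WT-only promoters, 63.7% in degron-only promoters, 66.0% in shared promoters and 54.3% in promoters without a region, and the median number of CpG per promoter was 11, 16, 27 and 6 in the same order. CCGGAAG, a motif of ETS factors, was present in 20.1% of shared promoters, in 1.25% of degron-only promoters and in none of the 47 WT-only promoters. A match to these letters is a description of the sequence, and the part of base composition in these shares was not tested.

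The regions at the best-ranked degron-only promoters were called in most of the remaining libraries as well. Over all 160, auxin replicates covered 79.4% and 68.1%, washout replicates 50% and 79.4%, and KO replicates 70.6% and 59.4%. For promoters in regions where replicates of a group differed, auxin replicates covered 66.5% and 61.0%. Washout replicates covered 55.0% and 63.1% of those promoters, and KO replicates 65.6% and 60.6%. The region at the ZNF429 promoter (chr19:21505387-21506345) had the authors' −log10 p values of 49.7 and 38.5 in the AID_ctrl libraries and was called in all 4 auxin and washout libraries and both KO libraries. The regions at RPSA2, CIST1, PDE4C, ADAMTSL2, KLF7 and ABLIM1 showed the same calls, as did those at ATG5 and MAPK3. The region at FOXN3 differed only in KO replicate 2. At KLF7 the region, chr2:207165530-207165900, meets the promoter, chr2:207165899-207166198, only at its edge. At ATG5 the region, chr6:106316038-106316296, covers only part of the promoter. CIST1 and PDE4C share the same 383-bp region. Of the 407 genes of the lists, 5 had a promoter called in both AID_ctrl and neither WT library. This held for 144 of all 15812 genes with a promoter sequence, so the lists were near the background. CLDN7, a tight-junction claudin, had a region of 212 bp called in all 6 degron libraries and in no WT or KO library. NTS, which encodes the gut peptide neurotensin, had a promoter region called in both AID_ctrl libraries and in none of the other 8 libraries. SMAD9, a BMP-responsive transcription factor, and MAPK3 were called in every library but the WT pair. CREB3L1, a membrane-bound transcription factor, was missing from WT and from washout replicate 1.

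KO replicates covered 66.0% and 63.8% of the 47 WT-only promoters, and the 4 auxin and washout libraries 2.13% to 21.3%. For promoters in regions where replicates of a group differed, KO replicates covered 65.6% and 60.6%, and the auxin and washout libraries 55.0% to 66.5%. KO replicates covered 78.8% and 76.7% of promoters in shared regions. MUC13, ACER1, APELA and BMF were called in both WT and both KO libraries and in washout replicate 2, and in no other library. IVL was called in both WT and both KO libraries and in 1 of the 6 degron libraries, auxin replicate 2. AQP4, which encodes a water channel, ARMCX5-GPRASP2 and BNIP5 were called in WT alone among all 10 libraries. The promoter of ERG, an ETS factor of endothelium, was missing only from the 2 AID_ctrl libraries.

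The promoter counts depended on how a call was counted. The degron lists give peaks of variable width, and the WT lists give windows of exactly 500 bp, so a wide degron peak can cover a promoter while the WT window in the same region lies beside it. When each list's own intervals had to overlap the promoter, 1471 promoters were covered in both AID_ctrl and neither WT library, and 1252 of these lay in regions that WT called too. With the degron peaks recut to 500-bp windows on their summits, 493 promoters lay in degron-only regions, and without WT replicate 1 there were 777. There were 9417 when a list had to cover 50% of a region, a share that a single 500-bp window cannot reach in a region over 1000 bp. The WT-only count stayed between 47 and 77 except without WT replicate 1 (155) or replicate 2 (189).

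The call patterns over the 4 libraries showed how unequal the lists were. AID_ctrl replicate 1 called 91898 of the 126443 regions and replicate 2 called 89308. WT replicate 1 called 88298 and WT replicate 2 called 62142. The AID_ctrl pair had a Jaccard index of 0.708 (bases covered by both over bases covered by either), the WT pair 0.398, and pairs across the groups 0.318 to 0.397. With the degron lists recut to 500-bp windows these indices were 0.649, 0.398 and 0.323 to 0.419. By this measure the WT replicates were about as alike as WT replicate 1 was to either AID_ctrl replicate. In percent of all regions, degron-only regions made up 8.95%, WT-only regions 1.66% and shared regions 38.5%. A further 18042 regions were missing from WT replicate 2 alone, which is more than the degron-only class holds. With 2 libraries against 2 there are 3 ways to split the samples, so no p-value was computed, and the files hold no read counts, so depth is unknown.

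**Figure D1:**
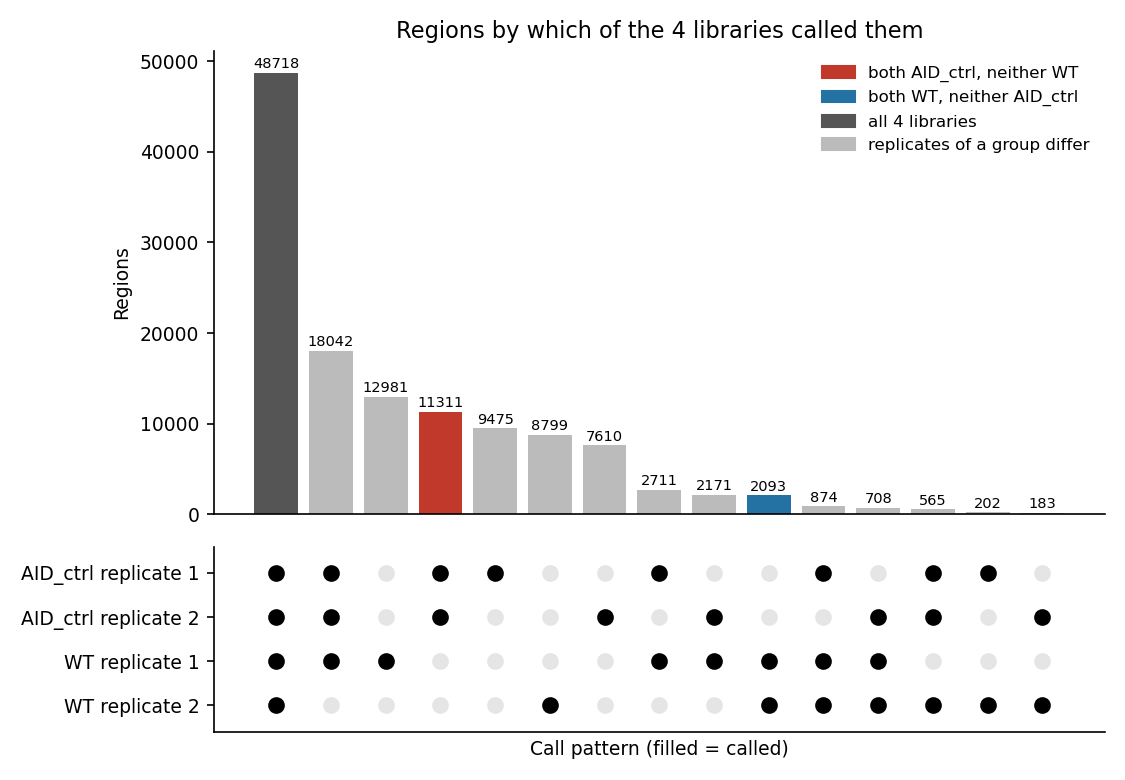
Number of regions (vertical axis, linear) for each of the 15 possible call patterns over the 4 libraries, with filled dots below marking the libraries that called. Regions called by all 4 (48718) form the tallest bar, followed by those missing from WT replicate 2 alone (18042), while both AID_ctrl without WT holds 11311 and both WT without AID_ctrl 2093.

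Rank within the degron lists separated what the lines shared from what they did not. The 78636 regions called by both AID_ctrl libraries were ordered by their mean rank on the authors' −log10 p and divided into 10 equal groups. In the strongest group, 99.9% were called by both WT libraries and 1 region of 7864 by neither. In the fifth group 75.8% were called by both WT libraries and 1.89% by neither. In the weakest group 12.2% were called by both and 55.2% by neither. Of the 11311 degron-only regions, 11084 (98.0%) lay in the 5 weaker groups and 20 in the 3 strongest. Their median −log10 p was 9.23 and 8.39 in the AID_ctrl replicates, against 40.4 and 37.3 for shared regions, and their median fold enrichment was 4.75 and 4.88, against 9.27 and 9.40.

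The decline differed between the WT replicates. In the sixth group WT replicate 1 called 93.1% and WT replicate 2 called 58.3%, and in the weakest group they called 42.9% and 14.1%. Both KO libraries together called 93.6% of the sixth group and 66.1% of the weakest. The KO lists were longer than the WT lists, with 130311 and 116231 windows against 92814 and 65939, and have the same form. Regions at the weak end were called more often in KO than in WT, and the part of list length in this was not tested.

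**Figure D2:**
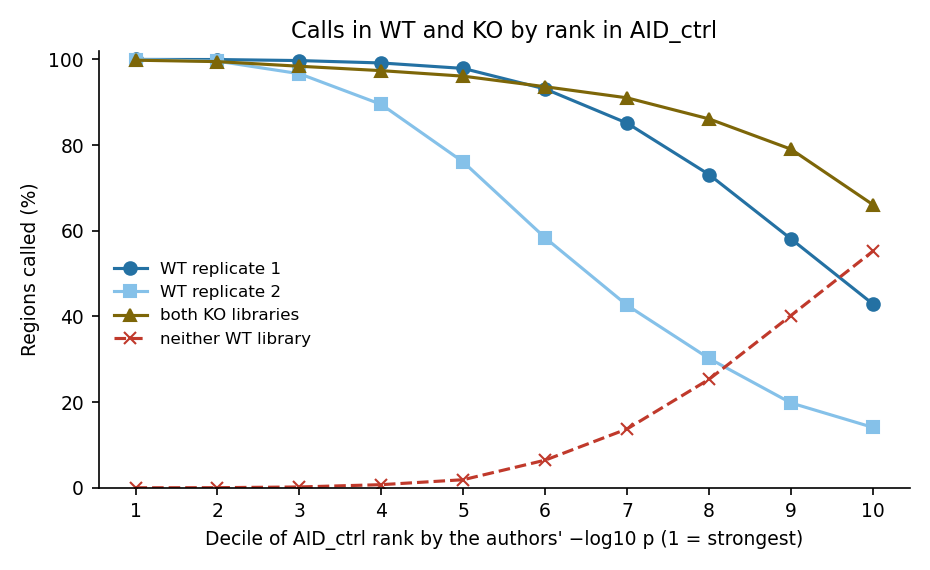
Percent of AID_ctrl regions (vertical axis) called by WT replicate 1, WT replicate 2, both KO libraries, or neither WT library, by decile of rank in AID_ctrl (horizontal axis, 1 is the strongest). Calls by both KO libraries fall from 99.8% to 66.1%, WT replicate 2 falls to 14.1%, and regions in neither WT library rise to 55.2%.

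The other 6 libraries called the degron-only regions in unequal shares. Auxin replicates called 80.6% and 68.1% of the 11311 regions, washout replicates 52.4% and 76.2%, and KO replicates 75.3% and 65.7%. As background for this class and the WT-only class, auxin replicates called 89335 and 81964 of all 126443 regions. Washout replicates called 73331 and 85948 of them, and KO replicates 96409 and 90680. Both KO libraries called 7137 (63.1%) and neither called 2498 (22.1%). All 4 auxin and washout libraries called 4141 (36.6%). The regions called by all 6 degron libraries and by no WT or KO library numbered 563, or 4.98% of the class. Of the whole class, 647 were called by no other degron library.

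WT-only regions were called less often in the auxin and washout libraries than degron-only regions were, and about as often in KO. Auxin replicates called 27.1% and 17.5% of the 2093 regions, washout replicates 7.36% and 17.8%, and KO replicates 69.8% and 64.9%. No degron library called 1283 (61.3%), and of these 621 were called by both KO libraries and 518 by neither. The shared regions were called at 96.9% to 99.2% in each of the 6 other libraries. WT and KO lists have the same form and the 6 degron lists another, so list form and line cannot be told apart in these shares.

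**Figure D3:**
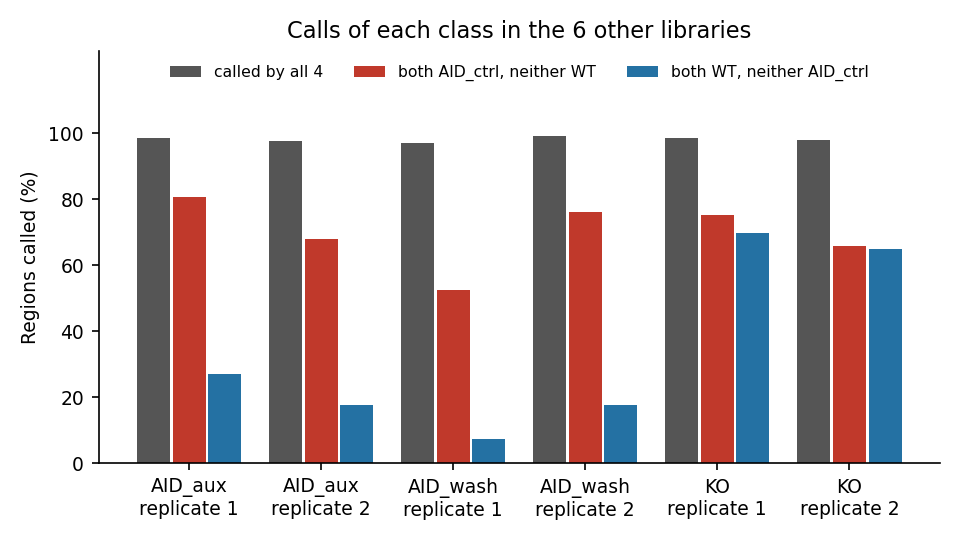
Percent of regions of each class (vertical axis) called in each of the 6 libraries outside the comparison (horizontal axis). Shared regions stay above 96% in every library, degron-only regions range from 52.4% to 80.6%, and WT-only regions reach 69.8% and 64.9% in KO but at most 27.1% in the degron line.

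GATA6 held 9 degron-only regions, 12 shared regions and no WT-only region among its 33 regions. Its promoter region (chr18:22168313-22170128) was called in all 10 libraries, with −log10 p of 33.7 and 42.3 in the AID_ctrl replicates. The region with the highest −log10 p among the 9 was chr18:22200224-22201449, 1226 bp wide, within the gene body and ending 1079 bp before the gene's far end at 22202528. It had 4 summits in each AID_ctrl library, with −log10 p of 38.7 and 20.1. It was called in all 6 degron libraries and in none of the 4 WT and KO libraries. This stretch stayed degron-only with degron lists recut to windows, shortened to 92814 windows each or held to 50% coverage, and with any of the 4 libraries left out. The next region, chr18:22201764-22201931, was called in both AID_ctrl libraries and no other. Another, chr18:22167117-22167418, lies 2321 bp before the gene by its midpoint and was also called in all 6 degron libraries and in neither WT nor KO. It starts just after chr18:22166136-22167042, which was called in all 10 libraries. The degron-only region chr18:22283433-22283942 likewise starts just after chr18:22282150-22283421, also called in all 10.

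The remaining GATA6 regions of this class were weak. Apart from the region near the far end, the other 8 lay in the 5 weaker groups by rank. Of the 9, 5 were called by no WT or KO library and 2 by both KO libraries. With the degron lists recut and shortened to the length of the longer WT list, GATA6 had 2 degron-only and 2 WT-only regions. It also had 2 WT-only regions at 50% coverage, 3 without WT replicate 1, 3 without WT replicate 2 and 1 without AID_ctrl replicate 2. The distal regions at chr18:22223360-22224354 and chr18:22250131-22251310 were called in all 10 libraries, the latter with −log10 p of 102.98 and 115. Calls at GATA6 thus differed near its far end and at weak regions, and were the same at its promoter and these distal regions.

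**Figure D4:**
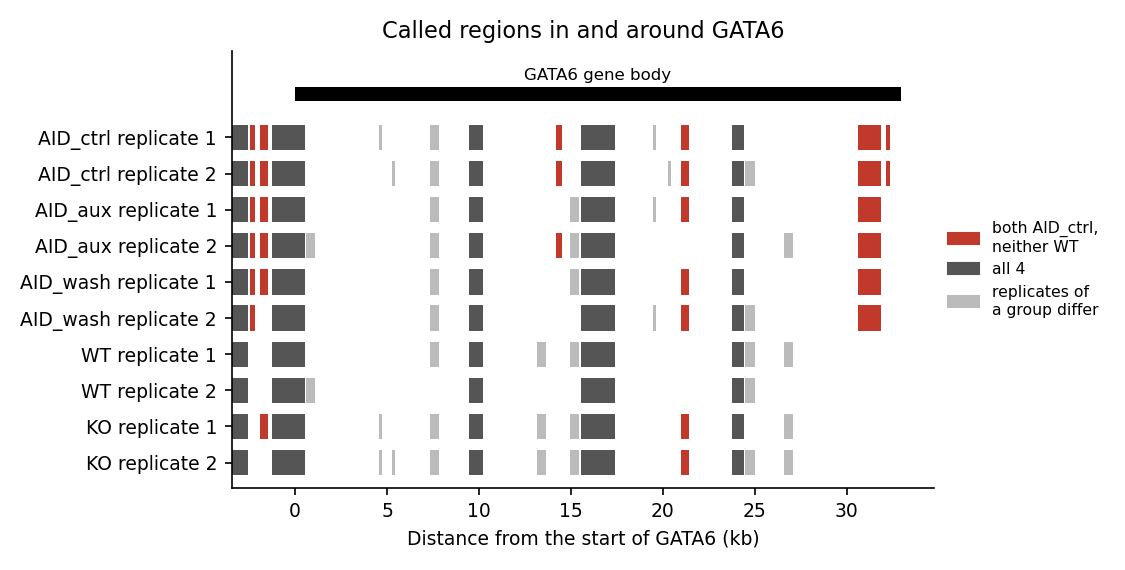
Regions called in each of the 10 libraries (rows) by distance from the start of GATA6 in kb (horizontal axis), with the gene body as a black bar, drawn at the width of the merged region. The region at about 31 kb, of the class called by both AID_ctrl and neither WT, is present in all 6 degron rows and absent from the WT and KO rows.

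ATP8A2, which encodes a phospholipid flippase of neurons, had the most degron-only regions of all protein-coding genes, with 16 of 35. Its AID_ctrl libraries called 26 and 28 of the 35 regions, WT called 11 and 4, auxin 26 and 25, washout 22 and 27, and KO 18 and 14. Both WT libraries were below every degron library. Only 2 of the 35 regions were called in all 4 libraries of the comparison. The count was 16 with recut windows, 11 with shortened lists and 16 to 22 when a library was left out.

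NRG1, which encodes the ERBB ligand neuregulin, had 13 degron-only regions of 44, with 35 and 29 called in AID_ctrl, 20 and 14 in WT, and 26 and 25 in KO. PARD3, a cell-polarity scaffold, had 13 of 61. AFF2 on chromosome X had 9 degron-only regions of 16, with 16 and 15 called in AID_ctrl, 6 and 3 in WT, and 12 and 11 in KO. CTNND2, which encodes delta-catenin, had 8 degron-only regions of 25 and 1 shared. CAMTA1 had 10 of 57, and ADAMTSL1, GLI2 (a hedgehog pathway transcription factor) and ZFHX3 (a homeobox factor) had 9 each. NCKAP5 had 8 of 25. With shortened lists these counts were 7 at NRG1, 7 at CAMTA1, 4 each at PARD3, AFF2, ADAMTSL1 and CTNND2, 3 at ZFHX3, 1 at NCKAP5 and 9 at GLI2. These are long genes, from 257 kb (GLI2) to 1135 kb (NRG1), apart from GATA6 at 32.9 kb, and a long gene collects more regions. Not all of these regions lay inside the genes. With midpoints inside the gene body the count was 3 at GLI2, 4 each at AFF2 and GATA6, 8 at ADAMTSL1 and 9 at NRG1. It was unchanged at PARD3, CAMTA1, CTNND2, ZFHX3 and NCKAP5.

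ADGRL2, second to CWH43 in WT-only regions, had no call in the degron line. It encodes latrophilin 2, an adhesion receptor. All 12 of its regions were without a call in any of the 6 degron libraries. WT replicates called 12 and 8 of them, and KO replicates called 5 and 3. Of the 12, 8 were called in both WT libraries, and that count was 8 with recut windows, with shortened lists and when either AID_ctrl library or WT replicate 1 was left out, and 12 without WT replicate 2. The gene overlaps a stretch of 1482 kb, chr1:80250716-81732347, that held 16 WT-called regions and no call from any degron library.

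A similar stretch lay on chromosome 7 and reached AUTS2, a neuronal gene. In chr7:68783626-69908185, 14 regions were called by a WT library, 8 of them by both and 1 by both KO libraries, and none by a degron library. The reverse was found over PTPRD, a receptor phosphatase, where chr9:9003297-9790530 held 12 regions called by an AID_ctrl library, 5 of them by both, with no call in WT or KO. Of the 12, at most 2 were called in every degron library. Near SORCS1, chr10:105769488-106577833 held 10 such regions, 5 called by both and at most 1 in every degron library. These stretches, among those with the most regions called by both libraries of a group, were chosen after the values were seen, and copy number at them was not tested.

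Several other genes with many WT-only regions lay near centromeres or belong to families with close copies. CWH43, whose product acts on lipid anchors of proteins, had 14 WT-only regions of 32, none with its midpoint inside the gene body. Its AID_ctrl libraries called 9 and 8, WT 28 and 28, and KO 22 and 22. The megabase chr4:49000001-50000000, where CWH43 was the gene with the most of them, held 19 WT-only regions of 40, the highest number of any megabase. TPTE had 6 of 15 and lies in the megabase chr21:10000001-11000000, which held 18. POTEM, of the POTE ankyrin family, had 4 of 13, called 5 and 12 times in WT and 0 and 0 times in AID_ctrl. The megabase chr14:105000001-106000000, which holds immunoglobulin heavy-chain genes, had 13 WT-only regions of 120. In all, 11 megabases with 7 or more WT-only regions held 118 of the 2093, and without them 1975 remained. How reads that match several places were handled is not given in the sources used here, and values at such copies are uncertain.

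Further genes among the 12 with the most WT-only regions had 4 each. EYS had 4 of 9, and KATNAL2, ELOVL6 (a fatty acid elongase), STK39 (a kinase that acts on ion cotransporters), CERS6 (a ceramide synthase) and NTM (neurotrimin, a cell-adhesion molecule) had the same number. CERS6 lies in 1 of the 11 dense megabases, chr2:168000001-169000000, which held 7. Of 2801 megabases with a region, 1563 held no WT-only region and 314 no degron-only region. The 5 widest WT-only regions were 1226 to 1311 bp, and none was called in any degron library. The region in NTM, chr11:131888360-131889640, was also called in both KO libraries, and that near RPIA, chr2:88773210-88774489, in neither.

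The genes with the largest share of regions called in all 4 libraries gave nearly the same picture in every library. SULT2B1, a sulfotransferase, had 10 of 11 regions shared. ID1, a BMP-responsive inhibitor of basic helix-loop-helix factors, LMNA (lamin A/C), TSPAN15 and VDAC1 had 9 of 10, and the carnitine transporter gene SLC22A5 had 11 of 13. At LMNA the number of called regions was 9 or 10 in each of the 10 libraries. None of the 3450 genes with at least 10 regions had all of them shared.

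The strongest degron-only regions, here ordered by the worse of their ranks in the AID_ctrl lists, lay mostly away from gene ends. The highest-ranked, chr6:128569757-128570041, was 285 bp wide, 49300 bp from PTPRK, and had −log10 p of 66.7 and 86.2. The next, chr7:125878672-125879806, had no protein-coding gene within 100 kb and values of 75.8 and 51.6. Both were called in all 6 degron libraries and in no WT or KO library. The region in B3GALT1, chr2:167509250-167510701, had 54.3 and 55.3, and that in MAK, chr6:10800629-10801137, had 48.7 and 62.0. Each of these was also called in KO replicate 1. Also among the 5 highest-ranked, chr11:30740510-30741832, was called in both KO libraries. All 25 highest-ranked regions by this order were called in the 4 other degron libraries, 13 of them in both KO libraries and 8 in neither, and 3 lay within 1000 bp of a gene end.

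In the lists as deposited, degron-only and WT-only regions as classes lay less often near gene ends than shared regions did. Within 1000 bp of either end of a protein-coding gene were 6.80% of degron-only regions (95% Wilson interval 6.35 to 7.28), 4.68% of WT-only regions (3.86 to 5.67) and 23.6% of shared regions (23.3 to 24.0). These intervals cover counting error only. The share near gene ends also fell with rank, from 40.8% in the strongest group of AID_ctrl regions to 6.33% in the weakest. At like rank the difference was present in the middle groups and small in the weakest: near an end were 4.70% of degron-only and 16.7% of shared regions in the fifth group, 6.50% and 13.3% in the sixth, 6.75% and 10.3% in the seventh, 7.38% and 7.91% in the eighth, 6.77% and 7.93% in the ninth, and 6.59% and 6.34% in the weakest. The share for degron-only regions was 18.4% with recut windows, 22.8% with shortened lists and 25.1% when peaks had to cover at least 50% of a region. Shared regions had 23.3%, 23.8% and 12.6% in the same settings. The degron-only share was thus lower with recut windows, close with shortened lists and higher at 50% coverage.

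No protein-coding gene lay within 100 kb of 15.2% of degron-only, 21.1% of WT-only and 9.38% of shared regions. The median width was 449 bp for degron-only, 556 bp for WT-only and 1073 bp for shared regions. Width follows in part from the lists, since every region with a WT window is at least 500 bp wide. Within 500 bp of an interval of the other group lay 15.1% of degron-only and 5.21% of WT-only regions. Chromosome X had a degron-only share of 13.6% (12.3 to 14.9) against 8.85% for the autosomes, whose shares ranged from 5.99% (chromosome 21) to 10.5% (chromosome 18). Among AID_ctrl regions of the 5 weaker groups, the shares were 31.9% on X and 28.1% on the autosomes. With shortened lists, 8.78% of all regions on X and 6.998% of all regions on the autosomes were degron-only.

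Gene lists of gut, signalling and other functions were compared with all 17728 protein-coding genes that had a region, at which 8.68% of regions were degron-only, 1.495% WT-only and 39.98% shared. Across 20 lists the degron-only share ran from 4.44% to 22.2%. Each list is described by its counts, with no test.

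Enteroendocrine genes had the highest degron-only share, 14 of 63 regions (22.2%, Wilson interval 13.7 to 33.9) at 9 of 17 genes, and no WT-only region. The share was 22.2% with shortened lists too, against 7.01% for all genes, and 23.3% to 42.9% when a library was left out, against 9.83% to 25.5%. At 50% coverage it was 26.98% against 27.7% for all genes, so it was no longer above them. All 3 regions of NTS were degron-only, called 3 and 3 times in AID_ctrl, 1 and 1 in auxin, 1 and 1 in washout, 0 and 0 in WT, and 2 and 2 in KO. RFX6, a transcription factor of endocrine cells, had 2 degron-only regions of 5. The share of enteroendocrine regions called in all 4 libraries, 19.0%, was the lowest of the 20 lists.

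Neuronal and synaptic genes had 73 degron-only regions of 486 (15.02%), at 19 of the 22 genes with a region. PTPRD had 8 of 30, DLG2, a synaptic scaffold, 7 of 29, and CNTNAP2, an axonal adhesion protein, 7 of 43. DLG2 regions were called 18 and 22 times in AID_ctrl, 12 and 2 in WT, and 19 and 17 in KO. The list's share was 9.11% with shortened lists, against 7.01% for all genes, and 23.7% at 50% coverage, below the 27.7% of all genes. Liver and pancreas genes had 6 of 35 (17.1%, Wilson interval 8.10 to 32.7), 1 each at 6 genes, with CEL and AFP called in neither WT library. Their share was 9.68% with shortened lists and 17.1% at 50% coverage, against 7.01% and 27.7% for all genes.

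The lists closest to the identity of the cells had degron-only shares near that of all genes. Intestinal transcription factors had 34 of 369 (9.21%) degron-only and 6 WT-only, and GATA6 supplied 9 of the 34. TCF7L2, the nuclear partner of beta-catenin, had 4 degron-only and 2 WT-only regions of 35, SOX9 had 3 and 0 of 15, and HNF4A had 0 and 1 of 12. WNT targets and stem cell genes had 26 of 291 (8.93%), with 5 at the receptor EPHB2 and 4 at TNFRSF19, and WT-only regions at CD44 and AXIN2, 2 each. Colonocyte and enterocyte genes had 9 of 110 (8.18%), 4 of them at APOB. VIL1, which encodes the microvillus protein villin, had 1 WT-only and 2 shared regions.

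Goblet and secretory genes had 6 degron-only (5.66%) and 5 WT-only regions (4.72%) of 106, and squamous genes 4 (6.45%) and 3 (4.84%) of 62, the highest WT-only shares among the lists. TFF3, a trefoil peptide of goblet cells, had 2 degron-only regions and 1 WT-only of 7, and AGR2 had 0 and 1 of 4. IVL had 2 WT-only regions, called 5 and 3 times of 5 in WT, 5 and 5 in KO, and 1 and 1 in AID_ctrl. Epithelial junction and keratin genes had 21 degron-only regions of 259 (8.11%), and 52.9% of their regions were shared. PKP2, a desmosomal plakophilin, had 4 degron-only of 24, and KRT19, a simple epithelial keratin, had 2 WT-only of 8.

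Signalling lists other than the aryl hydrocarbon receptor genes also lay near the value for all genes. YAP targets and Hippo genes had 27 of 303 (8.91%), with 3 of 7 at CCN2, a matricellular YAP target, and AREG, an EGFR ligand, had 2 WT-only of 27. BMP and TGF-beta genes had 30 of 332 (9.04%), with 4 each at SMAD6 and SMAD3, and 1 WT-only region. EGFR and RAS genes had 27 of 274 (9.85%), with 4 degron-only and 3 WT-only regions at EGFR itself. NF-kB and interferon genes had 11 of 110, with 2 each at CXCL8 and BIRC3. Aryl hydrocarbon receptor genes had the lowest share, 4 of 90 (4.44%, Wilson interval 1.74 to 10.9), and the highest shared share, 55.6%. AHRR, a repressor of that receptor, had 2 WT-only regions and 14 shared of 23.

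Cell cycle genes had 10 degron-only regions of 108 (9.26%), and 4 of these lay at CDK1, the mitotic kinase. CDK1 had 5 regions, of which AID_ctrl called 5 and 5, auxin 5 and 4, washout 4 and 5, WT 1 and 1, and KO 4 and 4. None of the 4 had its midpoint inside the gene body. Chromatin and looping factors had 26 of 223 (11.7%), with 3 each at HDAC9 and ARID1B. Housekeeping genes had 7 of 117 (5.98%) and no WT-only region. Mesenchymal genes had 13 of 138 (9.42%), with 3 of 7 at SNAI1, a repressor of E-cadherin, and COL3A1 had a WT-only region and no call in any degron library. Fibroblast and endothelial genes had 15 of 171 (8.77%), 4 of them at THY1. Blood and immune genes had 6 of 124 (4.84%), 3 of them at RUNX1.

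**Figure D5:**
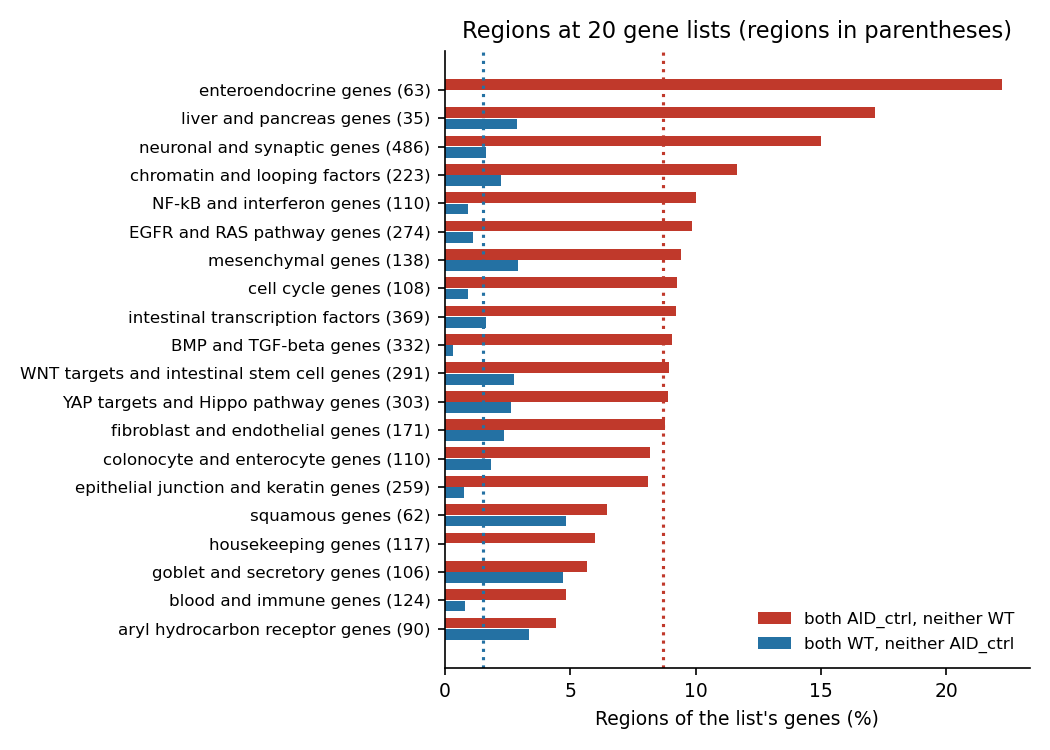
Percent of the regions of 20 gene lists (rows, number of regions in parentheses) that were called by both AID_ctrl and neither WT library or the reverse, with dotted lines at the values for all protein-coding genes (8.68% and 1.495%). Enteroendocrine genes reach 22.2% and aryl hydrocarbon receptor genes 4.44%.

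Markers of colorectal epithelium were open in both lines. Of 15 such genes, 13 and 14 had a call within 1000 bp of a gene end in AID_ctrl, and 12 and 10 in WT. CDX2, EPCAM, CDH1, KRT8, KRT18, KRT19, KRT20, HNF4A and LGR5 had one in all 10 libraries. CDX1 had one in all 6 degron libraries and in neither WT library, and CDH17 had none in any. Among other cell types, none of 4 liver markers had such a call in any library, and of 4 endothelial markers PECAM1 had one in AID_ctrl replicate 2 and none had one in WT. Of 5 blood markers, CD3E and SPI1 had a call in every library and PTPRC in neither group of the comparison. Of 6 fibroblast markers, 3 and 3 had a call in AID_ctrl and 3 and 2 in WT. Of 4 neuronal markers, SYP, SNAP25 and RBFOX3 had one in all libraries. Of 3 keratinocyte markers, KRT5 had one in both AID_ctrl libraries and WT replicate 2.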

How the data were processed

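Accessibility was measured in 10 libraries, of which 4 enter the comparison. The submitters' processing notes name MACS2 2.1.1, Bowtie2 2.4.2, Trim Galore 0.6.10, Picard and the build hg38. The sources used here give neither their parameters nor any filters. Each deposited degron list holds intervals with a score, a fold enrichment ratio, the −log10 p and −log10 q of each summit, set by the authors within that list, with a smallest −log10 p of 5.00. The deposited WT and KO lists hold only windows of 500 bp. Depth is unknown; the lists cover 69.3 and 65.6 Mb (AID_ctrl) and 46.4 and 33.0 Mb (WT).

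Intervals on chromosomes 1 to 22 and X were merged where they overlapped or touched. A library called a region when 1 of its intervals overlapped it by 1 bp. Regions were assigned to the protein-coding gene (RefSeq, GRCh38.p14) nearest to their midpoint within 100 kb. Regions called by both AID_ctrl libraries were ranked by −log10 p. Shares carry Wilson intervals at 95%, and no test was run. Code was tested on simulated lists, with Python 3.11.15, numpy 2.4.6, pandas 2.3.3 and scipy 1.17.1.

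Named were the 12 genes with most degron-only and the 12 with most WT-only regions, the 8 with the highest shared share among genes with at least 10 regions, up to 5 members of each list, GATA6, the 5 best-ranked degron-only and 5 widest WT-only regions, and promoters of each class (10 by rank, 10 of WT-only); some genes these rules name are not reported here. The members, the 20 gene lists and the markers were chosen with earlier results of these data known. Other settings tried were recut or shortened lists, 50% coverage, wider merging, a stricter −log10 p, autosomes only, other gene distances, ranking by fold and leaving out each library.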

Additional observations from a re-analysis of the deposited data

How the results depend on the processing

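Counts by class moved with how a call was made and which libraries were used, while shared regions changed by over 1.5 times only at 50% coverage. Degron-only regions (11311) numbered 2763 when AID_ctrl peaks needed a −log10 p of at least 10 and 34270 when peaks had to cover at least 50% of a region. They ranged from 11946 (without WT replicate 2) to 29542 (without WT replicate 1) when a library was left out, with 20331 and 22204 without AID_ctrl replicate 1 and 2. They were 15350 with 500-bp windows, 8515 with lists also shortened and 9603 when merged up to 250 bp apart. WT-only regions (2093) numbered 4514 at the stricter −log10 p, 3251 with shortened lists, 3718 at 50% coverage, and 2812 to 15112 without a library, the highest without WT replicate 2 and 10943 without WT replicate 1. Shared regions (48718) numbered 18288 at 50% coverage. Degron-only outnumbered WT-only regions in these settings, except at the stricter −log10 p and without WT replicate 2, where WT-only regions were more numerous.

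The share of degron-only regions near a gene end (6.80%) was 18.4% with 500-bp windows, 22.8% with shortened lists, 25.1% at 50% coverage, 5.23% when merged up to 250 bp apart and 13.9% for ends up to 3000 bp. It ranged from 6.95% to 7.35% without a library. The WT-only share (4.68%) was 6.21% at 50% coverage and 10.1% up to 3000 bp. The shared share (23.6%) was 24.95% at the stricter −log10 p, 12.6% at 50% coverage, 29.2% up to 3000 bp and 19.3% to 23.4% without a library. Of the AID_ctrl regions in the strongest of 10 groups, 97.7% were called by both WT libraries when ranked by fold, and 99.83% to 99.97% without a library. The cause of these changes was not tested. Promoter, chromosome, list and dense-megabase recounts were added after seeing the data. Of 1792 recounts at the named genes, 1324 lay within 1.5 times of the value given and 468 beyond.

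No paired analysis was possible because no result comes from a test. Without read counts, a region missing from a list cannot be told apart from one below that list's threshold.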
